A study of Mus musculus with 6 samples.

Results

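The Snrpn imprinted cluster of mouse chromosome 7 was examined for CpG methylation around the starts of 5 genes, Snrpn, Ndn, Magel2, Mkrn3 and Peg12. They were chosen as genes of this imprinted domain, out of 21647 genes with an annotated start, of which 17879 had enough reads around the start to be tested. For each gene, the region within 1000 bp of the start (the start region) and 20 windows of 500 bp covering 5 kb on either side were read from the tables of single CpG sites. All 5 start regions and 23 of the 100 windows reached the minimum number of observations. An observation is 1 read at 1 CpG.

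The libraries came from 3 kinds of mouse pluripotent stem cells, 2 per kind, and were read by whole-genome bisulfite sequencing. ASCs, the advanced pluripotent stem cells, were grown, according to the study, with activin A, BMP4, the Wnt pathway activator CHIR99021 and LIF. ESCs are naive embryonic stem cells grown in 2i/LIF. EpiSCs, or epiblast stem cells, stand for the primed state of the later epiblast. The strain label 129S2/SvPasCrl and the genotype label wild type are common to all 6 libraries. Female lines were used according to the study. The study calls the libraries of a group biological replicates, but no source used here says whether they came from separate lines or cultures, so the tests below measure the spread between these libraries. No expression was measured in these libraries, so cell identity was not checked against marker genes here.

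The 5 genes are expressed from the chromosome inherited from the father. The mark that sets this is laid down in the oocyte over the start of Snrpn, so that the maternal copy is methylated there from fertilisation on, and it is therefore called a germline mark. The other genes lie far from Snrpn and carry methylation on the maternal copy that is added in the embryo after fertilisation, called a somatic or secondary mark. A copy-specific mark read in DNA of both parental copies gives a level near the middle of the scale. The study describes the males used for its embryos as of mixed background. Maternal and paternal reads were not separated here, and a level in bulk DNA does not tell whether all cells carry the mark on 1 copy or some cells carry it on both.

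The sequences below show what lies under the marks, from the RefSeq GRCm38 genome and on the strand of each gene. They were taken as the 300 bases of the start region, outside untranslated sequence, that hold the most copies of TGCCGC for Snrpn and the most CpG sites for the other genes. TGCCGC is the sequence that the zinc finger protein ZFP57 recognises when its CpG is methylated, and ZFP57 keeps germline marks in place in the early embryo. The Snrpn stretch, chr7:60004573-60004872 on the minus strand, lies in an intron from 239 to 538 bp after the start and holds 14 CpG sites. Capitals mark the 4 copies of TGCCGC or its reverse complement GCGGCA.
Snrpn: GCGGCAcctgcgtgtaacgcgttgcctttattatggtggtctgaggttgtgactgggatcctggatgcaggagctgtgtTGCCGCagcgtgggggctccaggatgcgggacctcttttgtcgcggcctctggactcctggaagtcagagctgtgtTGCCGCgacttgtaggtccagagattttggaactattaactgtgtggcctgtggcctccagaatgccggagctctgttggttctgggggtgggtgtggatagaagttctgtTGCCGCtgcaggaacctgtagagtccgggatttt
In this stretch, methylation was 25.9% and 22.4% in the ASC libraries, 2.63% and 2.17% in the ESC libraries, and 48.6% and 41.0% in the EpiSC libraries.

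The other 4 stretches are coding sequence throughout, and capitals mark their CpG sites. Ndn (chr7:62348430-62348729, plus strand, 24 CpG sites) and Magel2 (chr7:62377350-62377649, plus strand, 11 CpG sites) are shown first. Mkrn3 (chr7:62419710-62420009, minus strand, 24 CpG sites) and Peg12 (chr7:62463941-62464240, minus strand, 43 CpG sites) follow.
Ndn: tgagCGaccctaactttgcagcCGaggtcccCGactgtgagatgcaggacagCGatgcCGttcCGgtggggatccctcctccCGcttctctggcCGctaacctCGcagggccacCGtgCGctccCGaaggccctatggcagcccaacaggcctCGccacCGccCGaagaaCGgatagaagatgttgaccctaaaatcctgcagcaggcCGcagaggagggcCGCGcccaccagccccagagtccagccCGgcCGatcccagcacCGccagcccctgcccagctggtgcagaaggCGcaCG
Magel2: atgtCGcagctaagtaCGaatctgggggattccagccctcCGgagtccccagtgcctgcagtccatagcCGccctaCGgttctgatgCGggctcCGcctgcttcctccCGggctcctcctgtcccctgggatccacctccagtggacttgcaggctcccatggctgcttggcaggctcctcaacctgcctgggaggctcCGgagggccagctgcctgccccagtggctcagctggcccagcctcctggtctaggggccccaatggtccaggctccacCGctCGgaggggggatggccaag
Mkrn3: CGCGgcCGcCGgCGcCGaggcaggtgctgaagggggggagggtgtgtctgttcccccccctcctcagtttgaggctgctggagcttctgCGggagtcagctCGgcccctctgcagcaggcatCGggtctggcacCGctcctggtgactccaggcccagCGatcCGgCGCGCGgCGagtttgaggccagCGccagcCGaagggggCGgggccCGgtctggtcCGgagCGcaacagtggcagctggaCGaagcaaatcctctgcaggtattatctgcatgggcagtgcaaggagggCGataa
Peg12: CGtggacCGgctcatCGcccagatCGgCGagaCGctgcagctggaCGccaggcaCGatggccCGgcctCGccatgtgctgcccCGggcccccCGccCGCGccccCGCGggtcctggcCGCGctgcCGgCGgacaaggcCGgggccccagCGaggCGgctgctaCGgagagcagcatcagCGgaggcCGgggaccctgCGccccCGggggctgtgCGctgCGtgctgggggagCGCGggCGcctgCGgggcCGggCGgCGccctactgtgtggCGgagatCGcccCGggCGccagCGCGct
None of these 4 stretches holds TGCCGC on either strand. The Mkrn3 stretch was read as methylated at 0 of 78 and 0 of 118 observations in the ASC libraries, which allows a level of up to 3.85% and 2.54%, against 54.2% and 47.4% in the EpiSC libraries. The Peg12 stretch was at 0% in both ASC and both ESC libraries, with up to 7.32% allowed at the lowest depth, while the EpiSC libraries differed from each other, with 15.9% of 138 and 60.2% of 113 observations. The upper limits given for levels of 0 cover counting error only, and neighbouring CpG sites on 1 read are not independent. The intervals of differences given below come from the model fitted across all start regions and include its estimate of the spread between libraries.

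The start region of Snrpn (chr7:60004111-60006111, minus strand, 48 CpG sites) held an intermediate level in ASCs. Snrpn encodes SmN, a protein of the splicing machinery found mainly in the brain. Its start region was methylated at 23.6% and 24.6% in the ASC libraries, 1.03% and 0.690% in the ESC libraries, and 54.3% and 56.1% in the EpiSC libraries, from 97 to 145 observations each. The groups did not overlap, and ASCs lay between the naive and the primed cells. The mean level was 24.1% ± 0.674 (SD, n = 2) in ASCs, 0.860% ± 0.241 (SD, n = 2) in ESCs and 55.2% ± 1.30 (SD, n = 2) in EpiSCs. ASCs were 23.3 percentage points above ESCs (95% interval 16.2 to 30.4, adjusted p = 2.0e-05) and differed from EpiSCs by -31.1 points (interval -41.5 to -20.6, adjusted p = 8.77e-05). EpiSCs were 54.3 points above ESCs (interval 46.4 to 62.2, adjusted p = 1.16e-08). The calls of ASCs against both other groups ended with a size threshold of 40 points, and Snrpn had too few observations to be tested with a minimum of 100, over 1000 bp upstream and 100 bp downstream, or around its most upstream start.

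At the other 4 genes, the ASC level over the start region differed from that of ESCs by less than 5 points, and most of the observations came from the CpG-dense sequence after the start. Ndn encodes necdin, a protein of the MAGE family that restrains cell growth in neurons. Its start region (chr7:62347277-62349277, plus strand, 64 CpG sites) was at 3.60% and 7.84% in the ASC libraries, 3.35% and 3.70% in the ESC libraries and 50% and 47.0% in the EpiSC libraries, from 250 to 376 observations each. ASC and ESC levels overlapped and the EpiSC levels stood apart. The ASC minus ESC difference was 2.19 points (interval -1.18 to 5.74, adjusted p = 0.264), and the ASC minus EpiSC difference was -42.8 points (interval -48.7 to -36.9, adjusted p = 2.02e-08). Magel2, another MAGE family gene, whose protein works with ubiquitin ligases, lies near Ndn (chr7:62375979-62377979, plus strand, 63 CpG sites). Its levels were 4.84% and 9.25% in ASCs, against 4.10% and 1.72% in ESCs, and 50.3% and 56.6% in EpiSCs. Both ASC libraries were above both ESC libraries at Magel2, but the difference of 4.13 points did not pass the test (interval -0.360 to 8.37, adjusted p = 0.115). Around the GENCODE start of Magel2, 31 bp away, the same difference was 5.37 points (adjusted p = 0.0515). ASCs were below EpiSCs at Magel2, with a difference of -46.4 points (interval -52.8 to -39.0, adjusted p = 7.21e-08).

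Mkrn3 encodes a makorin RING finger protein, a ubiquitin ligase that is known to hold back the onset of puberty. Its start region (chr7:62419139-62421139, minus strand, 75 CpG sites) was at 3.95% and 1.99% in ASCs, against 0.862% and 1.64% in ESCs, and 51.7% and 54.0% in EpiSCs. Both ASC libraries were again above both ESC libraries, but the difference of 1.72 points did not pass the test (interval -0.705 to 4.05, adjusted p = 0.234), whereas the ASC minus EpiSC difference was -49.9 points (interval -55.3 to -44.6, adjusted p = 2.0e-09). Peg12, also known as Frat3, is an intronless gene whose relatives bind the kinase GSK3. Its start region (chr7:62463510-62465510, minus strand, 123 CpG sites) was at 1.42% and 0.781% in ASCs, against 0.996% and 0.691% in ESCs, and 29.4% and 29.7% in EpiSCs. Its EpiSC level over the whole start region was the lowest of the 5. Within 500 bp of the start the EpiSC mean was 43.6% at Peg12 and lowest at Ndn, at 36.5%. The 2 libraries did not share this order, since Peg12 was below Ndn in EpiSC replicate 1. In the first 500 bp after the start, the EpiSC libraries were at 28.6% and 52.5% at Peg12 and at 35.3% and 36.5% at Ndn. The ASC and ESC levels of Peg12 overlapped. The ASC minus ESC difference was 0.256 points (interval -0.967 to 1.61, adjusted p = 0.696) and the ASC minus EpiSC difference -28.4 points (interval -32.7 to -24.0, adjusted p = 1.49e-08), which within 500 bp of the start was -43.0 points. Over the whole start region, the calls of EpiSCs against both other groups at Peg12 ended with a size threshold of 40 points.

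These small ASC minus ESC differences moved with single libraries and with the extent of the region. Leaving out 1 library at a time, they ran from 0.0722 to 4.31 points at Ndn, 1.93 to 6.34 at Magel2, 0.739 to 2.70 at Mkrn3 and -0.0624 to 0.575 at Peg12, and within 500 bp of the start the Ndn difference was -1.12. Over all genes, the median level within 1 kb of the start was 4.42% in ASCs and 1.64% in ESCs, so a higher ASC level is not particular to these genes. In the 1 kb before the start, which holds fewer CpG sites, ASCs were also above ESCs at the 4 genes. How many of all genes show this in that stretch was not counted. ASCs were there at 33.3% of 15 and 25% of 8 observations at Peg12, against 7.69% and 10% in ESCs. They were at 16.4% and 8.51% at Mkrn3, against 2.33% and 3.03% in ESCs, and at 9.46% and 25% at Magel2, against 6.67% and 4.65%. At Ndn they were at 16.7% and 8.33% of 12 observations each, against 3.70% and 0% in ESCs (0 of 20 allows up to 15%). In the 1 kb after the start no ASC library of these genes was above 7.81%. Over 1000 bp upstream and 100 bp downstream, the ASC minus ESC difference was 12.2 points at Magel2 (adjusted p = 0.153) and 7.45 at Mkrn3 (adjusted p = 0.109), and Ndn and Peg12 had too few reads for a test.

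**Figure D1:**
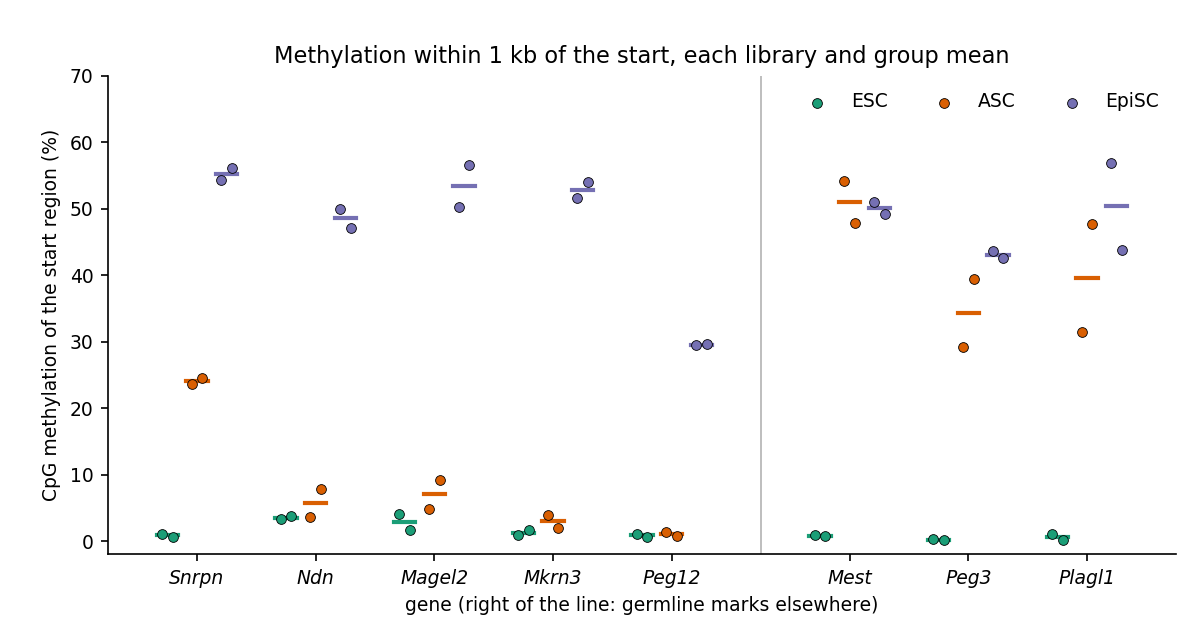
CpG methylation (%) within 1 kb of the start of each cluster gene and, right of the line, of 3 genes with germline marks elsewhere. Points are libraries and bars are group means of 2 libraries. ASCs sit between ESCs and EpiSCs at Snrpn (23.6% and 24.6%), while at Ndn, Magel2, Mkrn3 and Peg12 no ASC library is above 9.25%.

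A difference counted as a call when it was 20 points or more with an adjusted p under 0.05. ASCs exceeded ESCs by this measure at 21% of all start regions tested, and at 1 of the 5 cluster genes (Snrpn). EpiSCs exceeded ESCs at 37.6% of all start regions and at 5 of 5 cluster genes. ASCs fell below EpiSCs at 26.1% of all start regions and at 5 of 5 cluster genes. The median difference over the 5 genes was 2.19 points for ASC minus ESC, against 2.38 over all start regions, and -42.8 for ASC minus EpiSC, against -7.35. For EpiSC minus ESC it was 50.5, against 10.6 over all start regions, and the 5 genes ran from 28.7 points at Peg12 to 54.3 at Snrpn. The 3 contrasts share their libraries and are not independent of each other. In the first contrast Ndn, Magel2, Mkrn3 and Peg12 lay between 0.256 and 4.13 points, around the median of all start regions, and Snrpn lay above it at 23.3 points, so the share called (1 of 5) was near the background. In the other two contrasts each of the 5 genes was farther from 0 than the median of all start regions.

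As a share of the EpiSC level, the ASC level was 0.437 at Snrpn, 0.118 at Ndn, 0.132 at Magel2, 0.0563 at Mkrn3 and 0.0372 at Peg12. To set these against other genes, 2931 of 17879 start regions had a level under 10% in ESCs and between 20 and 80% in EpiSCs, as all 5 cluster genes did. The median share over those 2931 regions was 0.261, with quartiles of 0.112 and 0.444. Snrpn lay near the upper quartile in both ASC libraries (0.428 and 0.446), and Mkrn3 and Peg12 lay below the lower quartile in both. Ndn (0.0742 and 0.162) and Magel2 (0.0905 and 0.173) lay below the lower quartile in ASC replicate 1 and above it in ASC replicate 2. ASCs were under 10% in 1561 of these regions (53.3%), which include those of Ndn, Magel2, Mkrn3 and Peg12, and between 20 and 80% in 518 (17.7%), which include that of Snrpn. A low ASC level at a start that is partly methylated in EpiSCs was thus common in these libraries and not a property of the cluster alone.

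The difference between the germline mark and the somatic marks was also taken within each library, as the Snrpn level minus the mean of the other 4 start regions. It was 20.2 and 19.6 points in the ASC libraries, -1.30 and -1.25 in the ESC libraries, and 8.92 and 9.28 in the EpiSC libraries. The contrast within a library was therefore largest in ASCs, slightly below 0 in ESCs, and smaller in EpiSCs than in ASCs. In ESCs, Snrpn was at 1.03% and 0.690% and the mean of the other 4 at 2.33% and 1.94%. With all levels this low, a large difference could not arise in ESCs, so the ESC value does not tell whether the marks differ there. The EpiSC value was smaller without Peg12. Against Ndn, Magel2 and Mkrn3 alone, a comparison added after seeing the data, the difference was 3.61 and 3.56 points in EpiSCs and 19.5 and 18.2 in ASCs. Replicates differed by under 1 point with all 4 genes and the whole start region, but within 500 bp of the start the EpiSC libraries were at 6.08 and 12.4 points, against 27.1 and 26.5 in ASCs. An exact permutation test over the 15 ways of forming 3 groups of 2 gave p = 0.0667, which is the smallest value this design allows. Only 1 start stands for the germline mark here, and it also has the fewest CpG sites of the 5 (48, against 63 to 123). The part of CpG number in this difference was not tested.

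Mest, Peg3 and Plagl1 carry germline marks of maternal origin at their starts, as Snrpn does, on other chromosomes or elsewhere on chromosome 7. Mest encodes a hydrolase-like protein, and Peg3 and Plagl1 encode zinc finger proteins. In ASCs, the level was 54.1% and 47.8% at Mest, 29.2% and 39.3% at Peg3, and 31.5% and 47.6% at Plagl1. All 3 were at 1.05% or less in both ESC libraries, and the ASC share of the EpiSC level was 1.02, 0.796 and 0.786, so each was above the 0.437 of Snrpn. Each of the 3 was called above ESCs in ASCs and none was called lower than in EpiSCs. The ASC minus EpiSC interval was -4.60 to 7.27 for Mest, -15.3 to -1.85 for Peg3 (adjusted p = 0.0246, below the size threshold) and -19.4 to 0.599 for Plagl1. None of these intervals reached the -20.6 that bounds the interval of Snrpn, but the difference between genes was not itself tested.

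**Figure D2:**
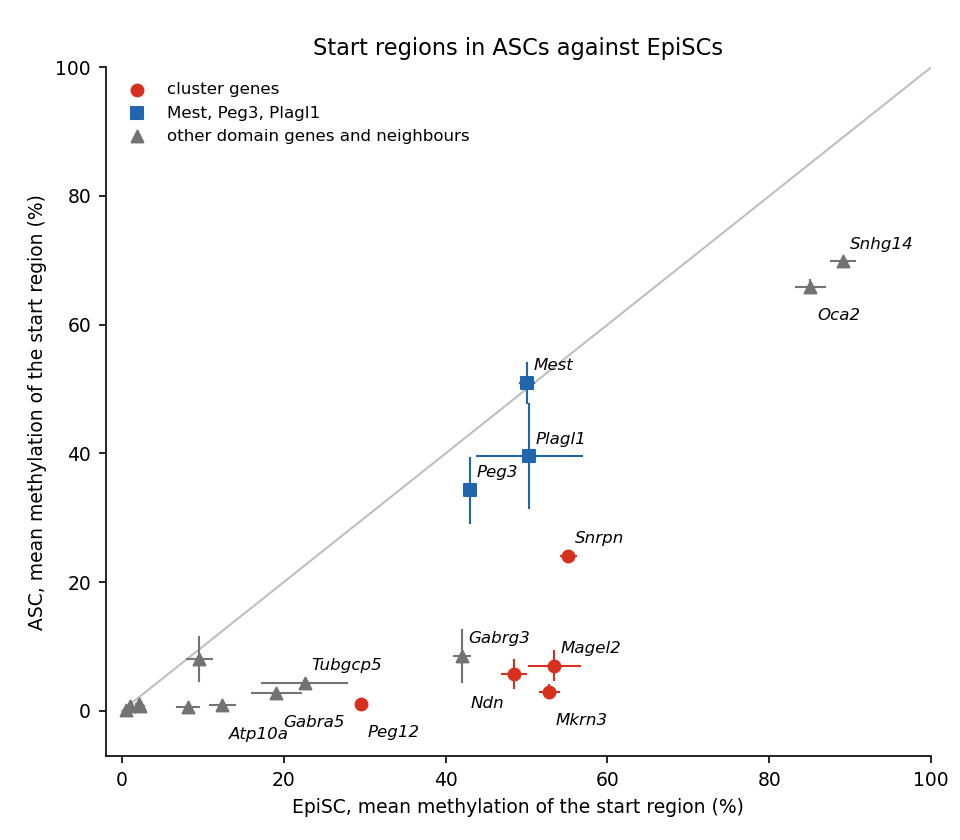
Mean start region methylation (%) in ASCs against EpiSCs for the cluster genes (circles), Mest, Peg3 and Plagl1 (squares) and other genes of the domain and its neighbourhood (triangles). Lines through a point span the 2 libraries and the diagonal marks equal levels. Ndn, Magel2, Mkrn3 and Peg12 lie along the bottom, and Snrpn lies between them and the 3 other germline marks.

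Windows of 500 bp showed where within each locus the levels changed. At Snrpn, the first 500 bp after the start were at 22.7% and 25% in ASCs, against 0% and 1.72% in ESCs, and 38.7% and 50% in EpiSCs. The 500 bp before the start were at 35.3% of 34 and 50% of 8 observations in ASCs, 0% of 24 and 0% of 44 in ESCs (which allows up to 12.5% and 6.82%), and 94.4% of 18 and 100% of 13 in EpiSCs, which was too few reads for a test. The first kb after the start was at 47.8% and 50.9% in EpiSCs. Farther upstream, EpiSC levels were again lower, with 33.3% of 12 and 50% of 6 observations from 1500 to 1000 bp before the start and 53.3% of 15 and 66.7% of 3 from 2500 to 2000 bp before it, also too few for a test. From 1500 to 2000 bp after the start, ASCs were at 54.1% and 39.1% and EpiSCs at 56.5% and 59.5%. This was the only one of the 23 tested windows where ASCs were not called lower than EpiSCs (difference -11.4 points, adjusted p = 0.301), and it had the largest ASC minus ESC difference of the 3 tested Snrpn windows (44.7 points, adjusted p = 0.00195).

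At the 4 genes with somatic marks, ASCs were low at the start and mostly higher away from it. The first 500 bp after the Mkrn3 start were methylated at 0 of 120 and 0 of 150 observations in ASCs, which allows up to 2.50% and 2%, against 60.7% and 56.7% in EpiSCs. The same window of Magel2 was at 0% of 105 (up to 2.86% allowed) and 1.36% of 147 observations in ASCs against 48.7% and 56.0% in EpiSCs. For Ndn it was 1.26% and 1.23% in ASCs, against 0.935% and 3.61% in ESCs, and 35.3% and 36.5% in EpiSCs. ASC and ESC libraries were alike low in these windows, and none of these 3 windows passed the test between the 2 groups. Peg12 was at 0% in all 4 ASC and ESC libraries in its first 500 bp, which allows up to 6.52% in the shallowest of them, with 28.6% and 52.5% in the EpiSC libraries, so the primed libraries differed from each other by more here than in the same window of the other 4 genes.

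After the start, ASC levels were higher at a shorter distance at Ndn and Magel2 than at Mkrn3 and Peg12, as a description with no test. From 1000 to 1500 bp after the Magel2 start, ASCs were already at 71.4% and 57.7%, against 9.38% and 20% in ESCs and 94.4% and 98.5% in EpiSCs. This was the largest ASC minus ESC difference of any tested window of the 5 genes (49.9 points, adjusted p = 0.00264). Before the start the order was not the same, with Magel2 at 6.67% of 15 and 0% of 9 observations in ASCs from 1500 to 1000 bp before it (which allows up to 33.3% in the second) and Mkrn3 at 37.5% of 24 and 50% of 4 from 1000 to 500 bp before it. From 1500 to 2000 bp after the Mkrn3 start, ASCs were still at 15.4% and 12% while EpiSCs were at 90.9% and 96.0%, the largest ASC minus EpiSC difference of any tested window (-79.8 points, adjusted p = 0.000147). At Peg12, the window from 2000 to 2500 bp after the start was at 4% and 2.78% in ASCs and 40.6% and 75% in EpiSCs. The largest ASC minus EpiSC difference of the 4 tested Ndn windows was in the second window after the start (6.33% and 19.4% in ASCs, 70% and 68.5% in EpiSCs, difference -56.4 points, adjusted p = 0.000538).

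**Figure D3:**
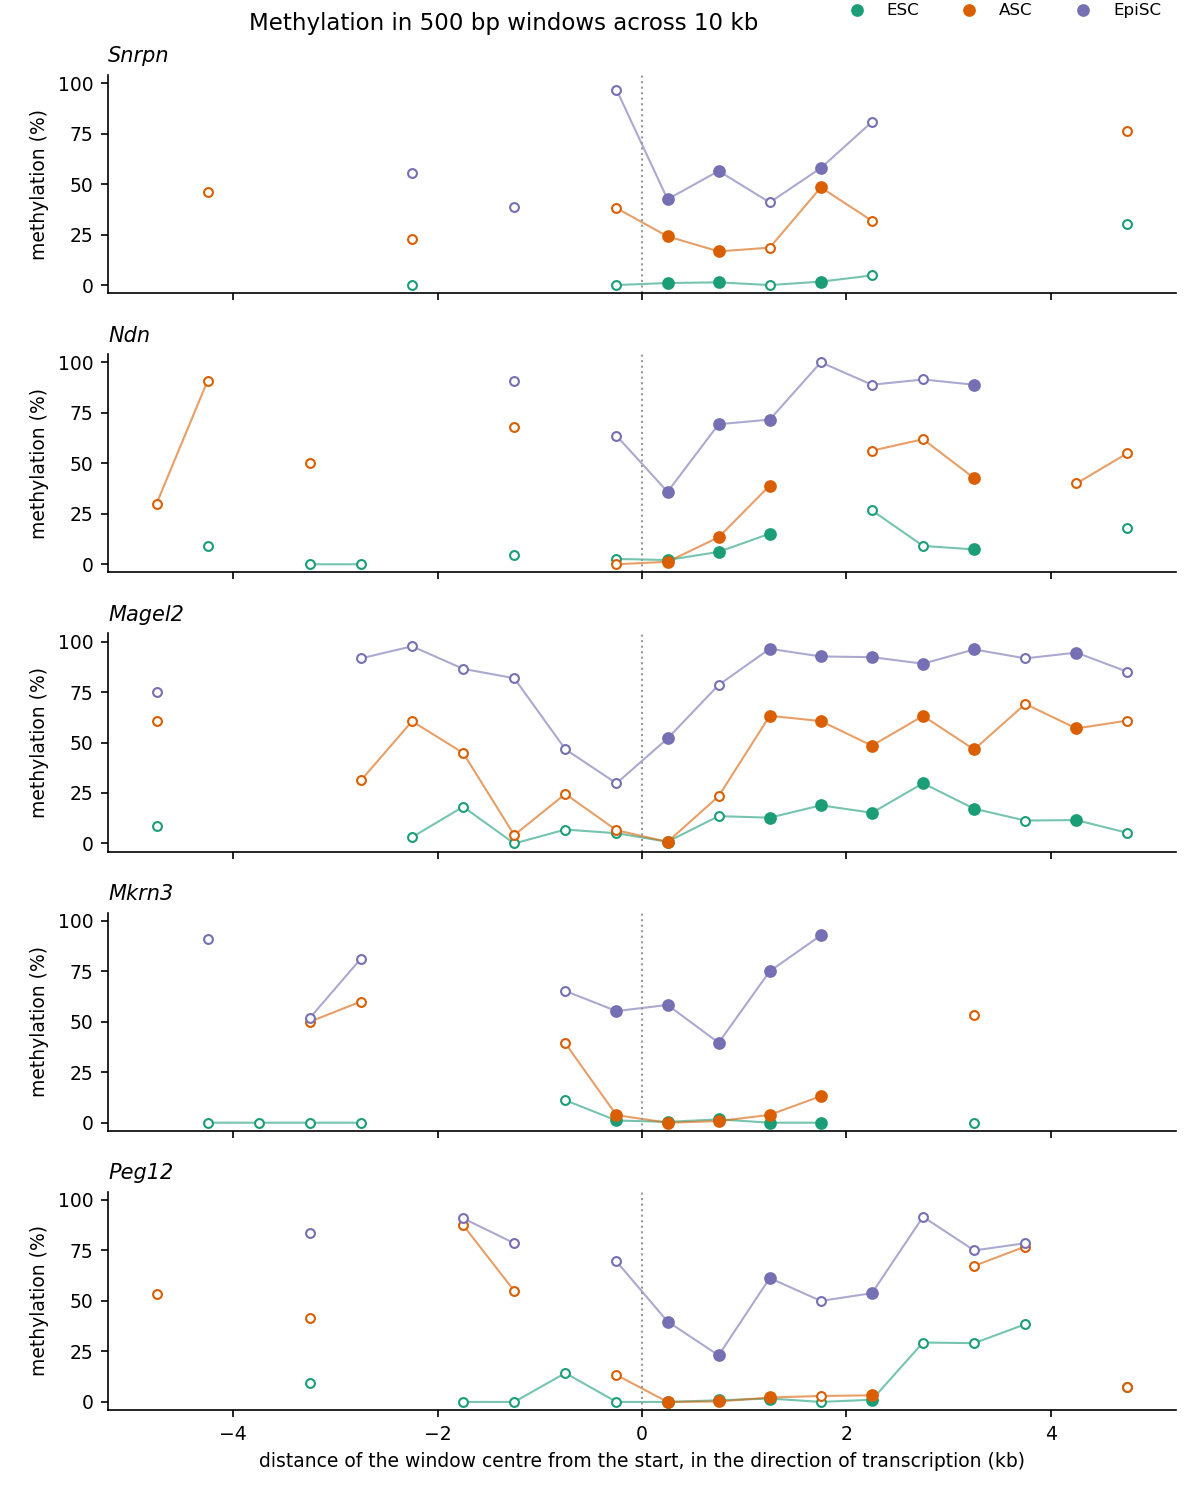
Methylation (%) in 500 bp windows against distance from the start (kb) for the 5 cluster genes, with both libraries of a group summed. Filled points are tested windows, open points are windows under the minimum with at least 10 observations in the group, and the dotted line is the start. ASCs follow ESCs near 0% at the starts of Ndn, Magel2, Mkrn3 and Peg12, are higher in the flanks, and are above ESCs at Snrpn.

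ASCs exceeded ESCs at 10 of the 23 tested windows of the 5 genes, against 49.5% of all windows tested. EpiSCs exceeded ESCs at 23 of 23, against 69.4%, and ASCs fell below EpiSCs at 22 of 23, against 51.3%. The 10 windows were 6 of 7 at Magel2, 2 of 4 at Ndn, 2 of 3 at Snrpn, 0 of 5 at Mkrn3 and 0 of 4 at Peg12. Some of these 10 calls were lost when 1 ESC or 1 EpiSC library was left out. Leaving out an EpiSC library changes no ASC or ESC level. It acts on this contrast only through the estimate of the spread, which the 3 groups share and which then rests on fewer libraries. The median ASC minus ESC difference was 13.7 points over the 23 windows, against 20.9 over all windows, and the median ASC minus EpiSC difference was -43.0, against -21.4.

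Farther from the starts, ASCs were methylated at all 5 genes. Between 2 and 5 kb from the start, ASCs were at 33.3% and 49.1% at Snrpn, 46.2% and 54.5% at Ndn, and 48.3% and 61.7% at Magel2. They were at 41.7% and 60.0% at Mkrn3 and 39.1% and 38.7% at Peg12. The median over 20571 genes in this zone was 60.5% and 60.7%, so the ASC flanks of 4 of the 5 genes were below it in both libraries and that of Magel2 in 1. Within 1 kb, the median over 19099 genes was 4.35% and 4.50% in ASCs and 14.6% and 14% in EpiSCs. The starts of Ndn, Magel2, Mkrn3 and Peg12 were thus near the typical gene in ASCs and above it in EpiSCs, and Snrpn was above it in both.

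The observed levels of single CpG sites were also counted. With both libraries of a group summed and at least 4 reads required, 23 of 35 sites at Snrpn were between 20 and 80% methylated in ASCs and none was over 80%. In ESCs 0 of 36 sites were in that range, and in EpiSCs 27 of 32 were. Sites under 20% in ASCs numbered 51 of 58 at Ndn, 38 of 48 at Magel2, 61 of 67 at Mkrn3 and 84 of 85 at Peg12. In EpiSCs, most sites of these genes were between 20 and 80%, with 46 of 56 at Ndn, 47 of 54 at Magel2, 60 of 69 at Mkrn3 and 55 of 78 at Peg12. The median depth behind a site was low, for example 6 reads at Snrpn in each group, so these are counts of sites by their observed share of reads, and the level of a single site was not resolved.

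**Figure D4:**
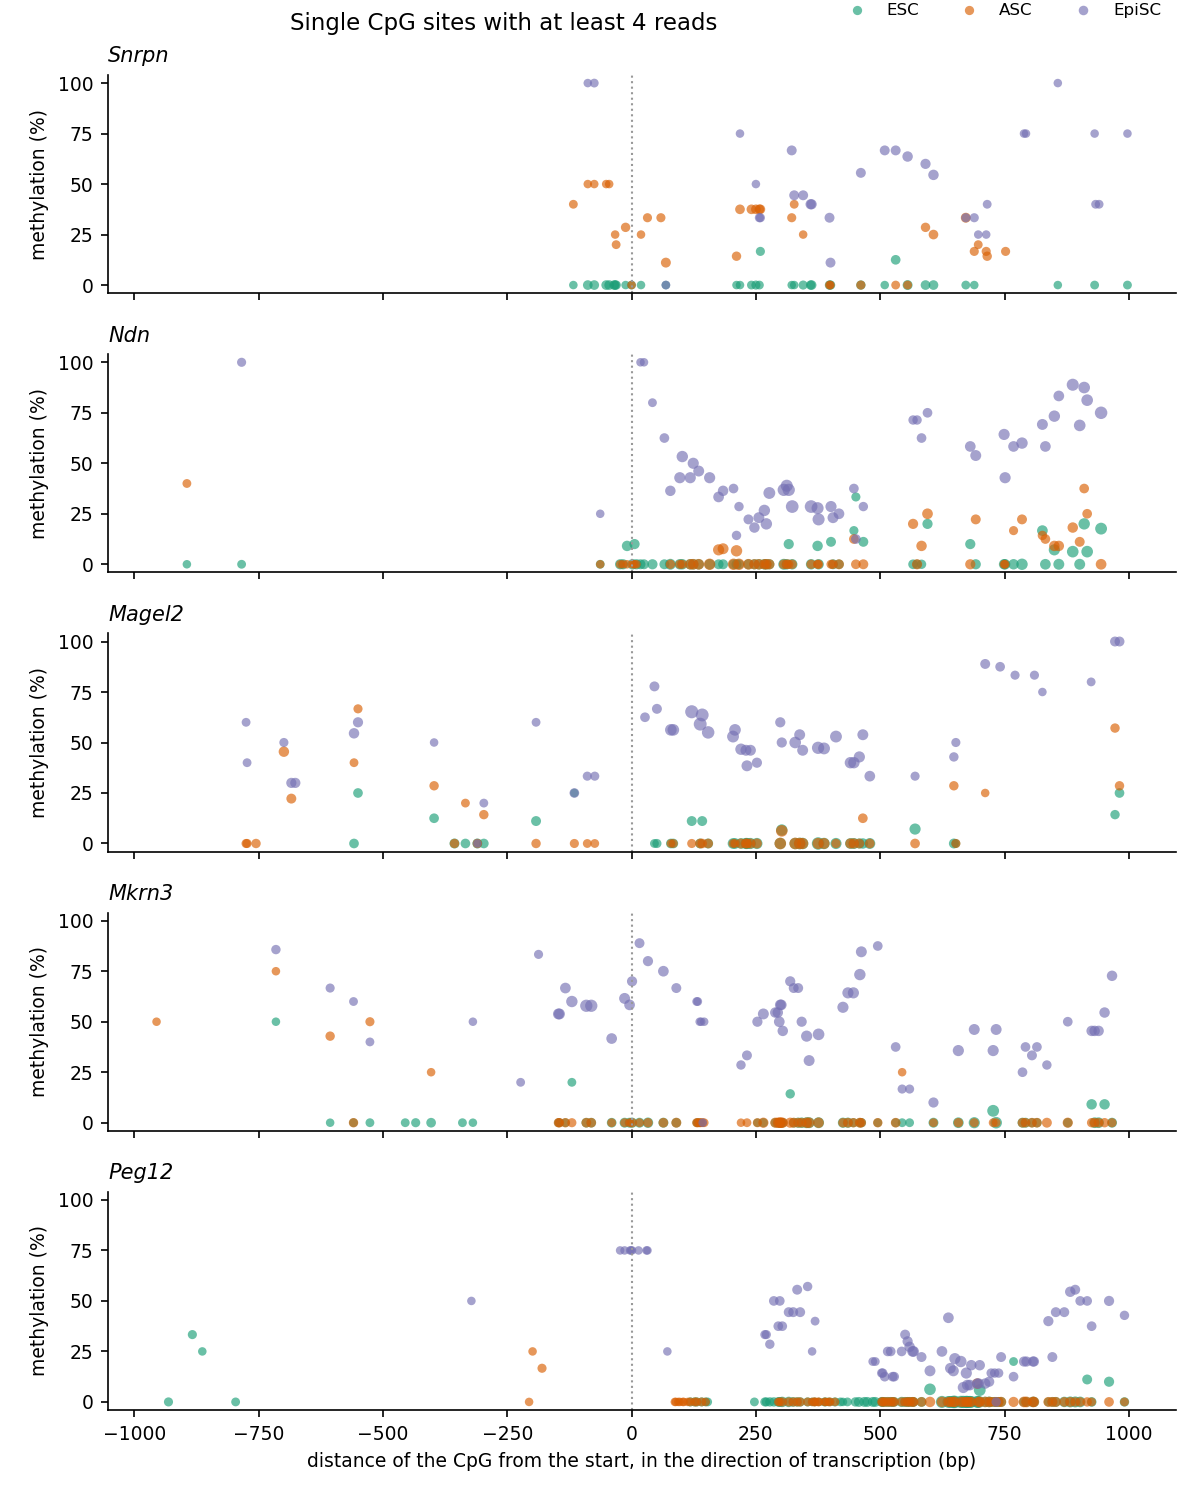
Methylation (%) of single CpG sites with at least 4 reads against distance from the start (bp), with both libraries of a group summed and larger points for more reads. At Snrpn, 23 of 35 ASC sites lie between 20 and 80%, whereas at Peg12 84 of 85 lie under 20%. Most EpiSC sites lie between 20 and 80% at all 5 genes, but at Peg12 23 of 78 lie under 20%.

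The start region of Snrpn holds 10 copies of TGCCGC, counted on both strands, spread between positions -90 and 927 relative to the start. At least 10 copies were found in 7 of 21647 start regions (0.0323%), and at least 1 in 46.1%. The CpG sites inside the Snrpn copies were at 26.9% and 25% in ASCs, against 0% of 19 and 0% of 31 observations in ESCs (which allows up to 15.8% and 9.68%), and 65.5% and 56.7% in EpiSCs, so they were close to the rest of the region. Mest holds 12 copies and Peg3 and Plagl1 hold 6 each, whereas Ndn, Magel2 and Peg12 hold 0. Mkrn3 holds 3, which is reached by 8.32% of start regions. A copy of these letters is a description of the sequence and not evidence of binding.

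Snrpn also has annotated starts upstream. There are 6 between 42.9 and 445 kb before the main start, of which a pair only 6 bp apart was counted once. The regions around the resulting 5 starts hold 43 CpG sites in all and were at 39.8% and 51.6% in ASCs, against 9.68% and 8.05% in ESCs, and 85.5% and 84.4% in EpiSCs. These CpG-poor starts were thus high in EpiSCs, unlike the main start, and no test was made for them. Ndn has an alternative start in GENCODE, 1.71 kb before the one used, with 11 CpG sites, and around it ASCs were at 62.1% and 67.9% from 29 and 28 observations. The low ASC level of Ndn therefore holds for the CpG-dense start that RefSeq gives and not for the upstream one.

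The other genes of the domain and its neighbourhood differed among themselves. The start of Snurf lies next to that of Snrpn and the regions overlap almost fully, so its levels (23.4% and 24.6% in ASCs) are not an independent measurement. The annotated start used for Snhg14, the long RNA that runs from Snrpn towards Ube3a, lies downstream of the Snrpn start (chr7:59904686, 24 CpG sites in its region). Its level therefore does not describe the Snrpn start. The Snhg14 region was at 69.9% and 69.8% in ASCs, against 27.8% and 16.8% in ESCs, and 87.7% and 90.5% in EpiSCs. Ube3a, the ubiquitin ligase expressed from the maternal copy in neurons, was at 0.613% or less in every library, and Atp10a was at 10.9% and 14% in EpiSCs and at 1.38% or less elsewhere. Of these 4 genes, Snurf and Snhg14 passed the call against ESCs in both ASCs and EpiSCs, both upwards, and Snurf alone was called lower in ASCs than EpiSCs.

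Among the 9 neighbours outside the imprinted genes, Oca2 was called higher in ASCs than ESCs, and Oca2, Gabrg3 and Tubgcp5 were higher in EpiSCs than ESCs. Gabrg3 was the 1 neighbour called lower in ASCs than EpiSCs. Gabrg3, which encodes a subunit of the GABA-A receptor, was at 4.46% and 12.5% in ASCs, against 2.50% and 1.33% in ESCs, and 43.0% and 41.0% in EpiSCs. EpiSCs stood apart here as at Ndn. Unlike at Ndn, both ASC libraries of Gabrg3 were above both ESC libraries (difference 6.56 points, adjusted p = 0.00912, below the size threshold). The median ASC minus EpiSC difference was -7.52 points over the 9 neighbours, against -42.8 over the 5 cluster genes and -7.35 over all start regions.

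Within the span of the cluster (chr7:60000111-62469510, 2.47 Mb, 12251 CpG sites), 66 tiles of 2 kb had enough reads. These tiles cover a small part of the span, so their values do not describe all of it. The median level of these tiles was 65.2% for ASCs, 14.2% for ESCs and 88% for EpiSCs, against 69.2%, 19.8% and 92.1% over chromosomes 1 to 19 and X. Tiles at 20% or more in EpiSCs and under 10% in ASCs numbered 6 of 66 (9.09%), against 1.52% over those chromosomes. The centres of all 6 lay within 1509 bp of the start of Ndn, Magel2, Mkrn3 or Peg12, so they cover again the low stretches described above. The part of the read requirement in the 9.09% was not tested. Counting every CpG read of the span, the ASC replicates stood at 48.7% and 49.4% (whole genome 59.8% and 60.2%). The ESC replicates stood at 10.1% and 10.2% (whole genome 17.9% and 18.2%). The EpiSC replicates, at 79.9% and 79.7%, were closer to their whole-genome values of 81.0% and 80.2%.

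The start regions nearest to each gene in level were found by the root mean square difference over the 6 libraries. After Snurf, the nearest to Snrpn were those of Cntnap5c (2.66 points) and Tmem100 (3.05 points). The nearest to Ndn was Arhgap6 (1.09 points), to Magel2 Pnck (1.15), to Mkrn3 Med12 (0.821) and to Peg12 Amdhd2 (0.442). Of the 15 regions nearest to Ndn, Magel2 and Mkrn3, 10 lay on the X chromosome, which holds 571 of the 17879 tested regions (3.19%), whereas 0 of the 10 nearest to Snrpn and Peg12 did. Reads per CpG on X, relative to the autosomes, were lowest in ESCs (0.371 and 0.384), then ASCs (0.503 and 0.499), then EpiSCs (0.634 and 0.622), so they differed between groups although the study describes all lines as female. The part of X dosage in these likenesses was not tested.

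The libraries held between 63803799 and 74925271 CpG reads, with a mean of 2.96 to 3.46 reads per CpG. Reads per CpG in the cluster were 0.525 to 0.551 of the autosomal value in the 6 libraries, so the cluster was shallower than the genome in every group alike. The level over all CpG reads was 59.8% and 60.2% in ASCs, against 17.9% and 18.2% in ESCs, and 81.0% and 80.2% in EpiSCs.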

How the data were processed

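DNA methylation of 6 libraries (ASC, ESC and EpiSC, 2 each) was measured by PBAT, a bisulfite method that adds adaptors by random priming to DNA already converted. Per the study's methods and processing notes, the authors trimmed reads with Trim Galore (removing 4 primer-derived bases 5′ and 1 base 3′), aligned them to GRCm38 with Bismark 0.16.3 in PBAT mode, removed duplicates and counted reads per CpG with MethPipe (version not given in the sources used here). In the deposited tables each CpG, strands merged, has its methylation level as a fraction between 0 and 1. A second deposited column holds the coverage, a raw read count with no normalization. Replicates were not pooled. Coordinates were converted to count from 1, and 100% of the chromosome 7 sites listed fell on a CpG of GRCm38. The lambda spike-in that controls for conversion was not analysed here, so incomplete conversion was not corrected. The reference is another strain than the labelled 129S2/SvPasCrl, and variants at CpG sites were not tested.

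Methylated counts were recovered as fraction times coverage, within 0.000115 of a whole number. The level of a region is methylated over all observations. Starts came from GENCODE M21 and RefSeq together, taking per gene the protein-coding start with most CpG sites within 500 bp. Snhg14, which is not protein-coding, was added by name from GENCODE. A start region needed 40 observations in every library, after the study's own minimum, and a window 20. All features were fitted together with a quasi-binomial logistic model per feature on the 3 groups, with the dispersion moderated by limma 3.58.1 (R 4.3.3), an F test per contrast and Benjamini-Hochberg adjustment over 17879 start regions or 131186 windows. Calls needed an adjusted p under 0.05 and 20 percentage points. Differences are between the means of the library levels of 2 groups. Their 95% intervals come from that fit and are centred on levels from the summed counts of each group, so a difference need not lie at the middle of its interval. The model was also run on simulated counts with the same overdispersion in all groups, and no result of that run is given or relied on here. Replicate numbers did not pair the libraries (correlations of same-numbered deviations from -0.00674 to -0.00600). Named genes were the 5 members, fixed lists of domain genes, neighbours and 3 germline marks, the windows at each start or with the largest difference, and the 5 nearest start regions. The members and lists were chosen with earlier results of these data known.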

Additional observations from a re-analysis of the deposited data

How the results depend on the processing

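Over the 6 counts of calls and the within-library difference between Snrpn and the other 4 genes, 98 values under alternatives were like the reported ones (a count within 1.5 times, a difference with the same sign and the same side of the test) and 19 moved. Among the other values followed, such as levels and differences of single genes, 285 were alike, 48 moved, 4 lost their call and 2 changed sign. Some alternatives could not move a value, such as leaving out an EpiSC library for an ASC minus ESC difference. No called direction reversed, but 2 uncalled ASC minus ESC differences changed sign, that of Ndn (2.19 points) to -1.12 within 500 bp of the start and that of Peg12 (0.256) to -0.0624 without ASC replicate 1 (-0.0624 to 0.575 over the 6 libraries left out in turn). Start regions called higher in ASCs than in ESCs numbered 1, and 0 with a size threshold of 40 points. It was also 0 with a minimum of 100 observations (4 tested), over 1000 bp upstream and 100 bp downstream (2 tested) and with the most upstream start (3 tested), but in these 3 settings Snrpn had too few observations to be tested, so its call was not tried. Those higher in EpiSCs than in ESCs numbered 5, but 2 of 2 over 1000 bp upstream and 100 bp downstream and 3 of 3 with the most upstream start. Those lower in ASCs than in EpiSCs numbered 5, but 2 of 2 and 3 of 3 with the same settings. With a size threshold of 40 points, these counts were 4 of 5 for EpiSCs above ESCs and 3 of 5 for ASCs below EpiSCs. Windows higher in ASCs than in ESCs numbered 10 of 23, but 16 of 34 with a minimum of 10 observations, 4 of 11 with 40 observations and 4 with 40 points, and windows of the other contrasts numbered 11 of 11 with 40 observations, and 14 of 23 with 40 points for ASCs below EpiSCs. Leaving out 1 library at a time gave 6 to 9 windows higher in ASCs than in ESCs, 22 to 23 higher in EpiSCs than in ESCs and 16 to 22 lower in ASCs than in EpiSCs, and start region counts of 1, 5 and 5. With the replicate block, start region counts were 1, 5 and 5 and window counts 9, 23 and 21, so pairing by number changed no count by more than 1.5 times.

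Within 500 bp of the start, ASC levels were 1.18% at Ndn, 1.87% at Magel2, 0.837% at Mkrn3, 0.625% at Peg12 and 27.9% at Snrpn, so the gap between Snrpn and the others was 26.8 points. Over 1000 bp upstream and 100 bp downstream, ASC levels were 31.2% at Snrpn, 5.52% at Ndn, 16.3% at Magel2, 9.32% at Mkrn3 and 14.3% at Peg12. With GENCODE starts alone, an alternative chosen after seeing the data, Ndn was at 65% in ASCs. Other values moved by over 1.5 times. Peg12 in EpiSCs (29.5%) was at 51.2% over 1000 bp upstream and 100 bp downstream and at 19.1% as the mean of sites with at least 5 reads, and its EpiSC minus ESC difference was 43.6 points within 500 bp. The Magel2 ASC minus EpiSC difference was -30.7 points over 1000 bp upstream and 100 bp downstream. Around the most upstream start, EpiSCs were at 95% at Snrpn and 85% at Ndn, and ASCs at 36.4% at Snrpn. Depth limits these results to regions: about 3 reads per CpG cannot resolve single sites, and only 23 of 100 windows could be tested.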
